A study of Mus musculus with 6 samples.

Results

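The genes described here are 10 feedback and response genes of JAK-STAT signaling: *Socs1* to *Socs6*, *Cish*, *Pim1*, *Pim2* and *Pias1*. They were chosen by symbol, with earlier results of these data known, and all 10 are listed among the 24346 genes of the RNA-Seq tables. The cells were EGFP+ bone marrow cells sorted from calvarial bone of CX3CR1-EGFP knock-in mice, in which the promoter of a chemokine receptor of monocytes drives the green reporter and the sorted cells are called osteoclast precursors. Each of the 6 mice had lipopolysaccharide (LPS, a bacterial inducer of inflammation) at 20 mg/kg injected into the calvarial periosteum. From that day, 3 mice were given ABT-317, an inhibitor selective for JAK1, at 60 mg/kg by mouth in 2 doses per day over 5 days, and 3 were given vehicle. The comparison asks what inhibition of the kinase changed in the transcripts of these cells. No mouse without LPS was analysed here, so whether a level was raised by inflammation could not be read. The sources used here do not give the age of these mice or whether the knock-in allele, which replaces *Cx3cr1*, was present in 1 or 2 copies.

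Cytokines such as IL-6, interferons and GM-CSF bind receptors that carry JAK kinases, and the JAKs phosphorylate STAT proteins, which enter the nucleus and switch on target genes. Some of the targets feed back on the pathway: SOCS proteins and CISH bind activated receptors or JAKs through an SH2 domain and recruit a ubiquitin ligase through their SOCS box. *Pim1* and *Pim2* encode serine/threonine kinases that favor survival and growth and are often induced by STAT3 or STAT5, whereas *Pias1* encodes a SUMO ligase that restrains cytokine signaling and is not known chiefly as a STAT target. In osteoclast precursors, SOCS proteins modulate how interferons and other cytokines act on differentiation driven by RANKL.

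The members differ in the sequence before their start sites. The RefSeq promoter table (GRCm38.p6, windows of 300 bases from 250 before to 50 after each start) holds 8 windows for 7 of the 10 members, 2 of them for *Pim1*. Both strands were searched for TTCNNNGAA, the spacing that most STAT dimers bind, for TTC and GAA set 4 bases apart, a spacing of STAT6, and for 2 copies of GAAA set 2 bases apart, a core of interferon response elements. TTCNNNGAA was found in 2 of the 8 member windows (25.0%), against 8.3% of all 32851 windows. The paired GAAA motif was found in 1 member window (12.5%, against 3.44% of all windows), and the wider spacing in none, against 6.95%. The stretches shown are those with a match (*Socs3*, *Cish* and *Socs1*) and that of *Pim2*, which has none and whose level lay lower with the inhibitor. Each begins 250 bases before the RefSeq start, reads 5′ to 3′ on the strand of the gene and ends at the last base before that start or, in *Cish*, at the end of the last match. The GENCODE M21 annotation sets other starts for *Socs3* (chr11:117966079-117970047) and *Cish* (chr9:107296026-107302784). By that annotation their stretches lie inside the genes, so distances from the start hold for RefSeq alone. It also starts *Pim2* at chrX:7878262, so the last part of the *Pim2* stretch lies inside that gene. Capitals mark the motif matches.
Socs3, chr11:117969367-117969616, minus strand: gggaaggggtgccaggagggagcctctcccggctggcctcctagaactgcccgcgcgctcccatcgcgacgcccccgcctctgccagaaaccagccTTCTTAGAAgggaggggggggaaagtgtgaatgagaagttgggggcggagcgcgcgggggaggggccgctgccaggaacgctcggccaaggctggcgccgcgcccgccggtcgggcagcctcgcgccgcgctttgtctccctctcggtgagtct
Cish, chr9:107296409-107296678, plus strand: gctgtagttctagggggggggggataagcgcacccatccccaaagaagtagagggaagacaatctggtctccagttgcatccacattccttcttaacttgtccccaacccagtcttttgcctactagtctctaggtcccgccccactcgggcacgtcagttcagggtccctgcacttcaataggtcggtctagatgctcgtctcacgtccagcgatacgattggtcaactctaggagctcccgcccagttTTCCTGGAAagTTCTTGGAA
Socs1, chr16:10785537-10785786, minus strand: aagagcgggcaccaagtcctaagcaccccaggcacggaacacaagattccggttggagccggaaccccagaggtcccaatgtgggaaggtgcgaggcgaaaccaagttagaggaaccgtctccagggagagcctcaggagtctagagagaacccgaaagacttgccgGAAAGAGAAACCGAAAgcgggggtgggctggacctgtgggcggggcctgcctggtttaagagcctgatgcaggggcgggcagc
Pim2, chrX:7878056-7878305, plus strand: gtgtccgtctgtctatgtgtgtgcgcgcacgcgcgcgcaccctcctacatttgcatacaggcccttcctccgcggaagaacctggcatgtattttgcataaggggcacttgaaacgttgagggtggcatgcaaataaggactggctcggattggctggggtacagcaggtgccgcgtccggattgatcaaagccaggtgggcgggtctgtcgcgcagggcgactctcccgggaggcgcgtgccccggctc

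The *Socs3* match, TTCTTAGAA, begins 154 bases before the start. *Cish* has a pair of matches, TTCCTGGAA from the RefSeq start base and TTCTTGGAA from base 12. In *Socs1*, the matches GAAAGAGAAA at 83 bases and GAAACCGAAA at 77 bases before the start share 4 bases, so they are 1 run of repeats. A match is a description of the letters and not evidence of binding, which was not measured.

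The levels of the members, given as FPKM (fragments scaled by transcript length and by the size of the library, so that genes of different length can be compared), spanned a wide range. By the mean over the 6 mice, *Pias1* was highest at 38.5 FPKM, followed by *Socs3* at 17.8, *Socs6* at 15.9, *Pim2* at 8.96, *Socs4* at 4.62 and *Pim1* at 3.99. The lower members were *Socs1* at 1.90, *Socs5* at 1.01, *Cish* at 0.562 and *Socs2* at 0.0748 FPKM. Between neighbours in this order, only *Pim1* and *Socs1* had ranges over the 6 mice that did not overlap. *Socs3* stood above *Socs6* by its mean but exceeded it in just 2 of 6 mice, and *Socs4* exceeded *Pim1* in 3 of 6. Tests were limited to the 11301 genes that reached an FPKM of 1 in any mouse. Among these, *Pias1* stood at the 76.1st percentile of mean FPKM, *Socs3* at the 59.7th and *Cish* at the 1.79th. *Socs2* did not reach 1 FPKM in any mouse and was not tested.

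**Figure D1:**
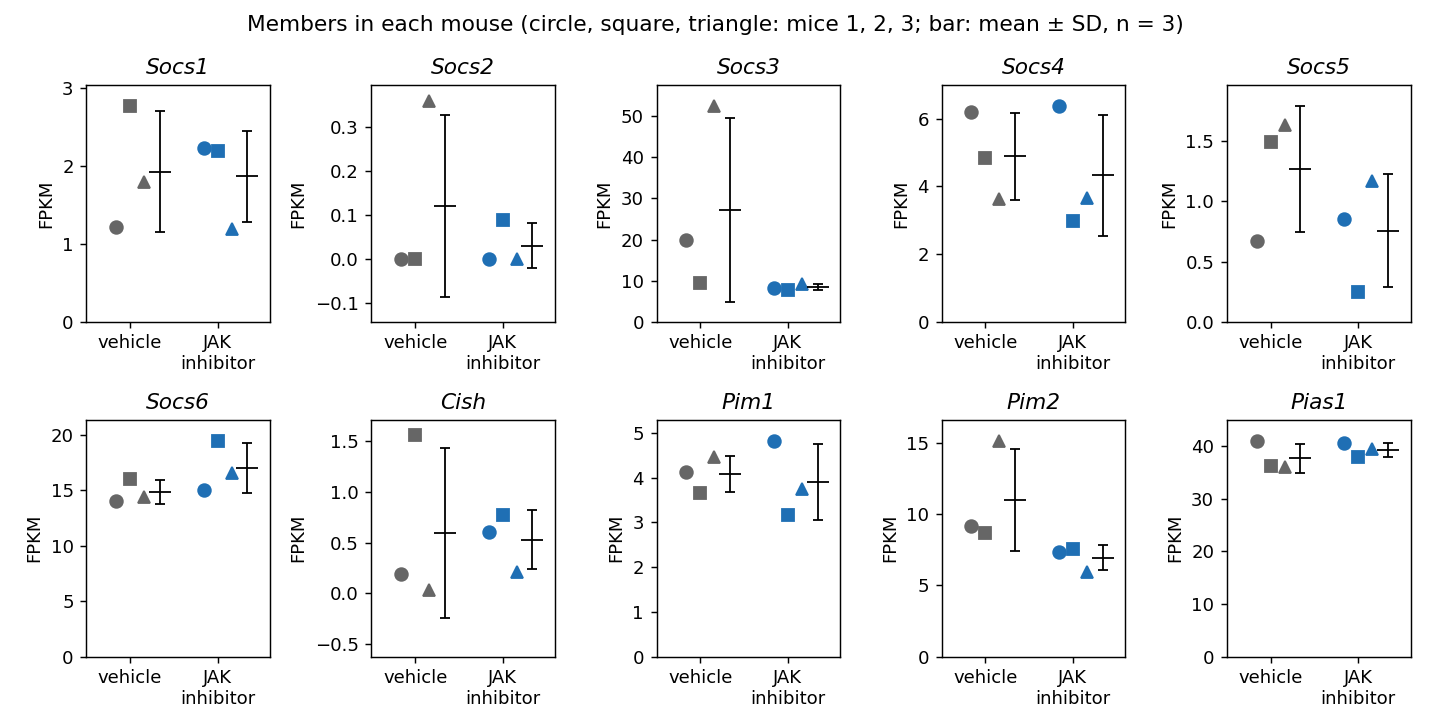
FPKM of the 10 members in each mouse (y axis, linear, own scale per gene) for vehicle (grey) and JAK inhibitor (blue). Circles, squares and triangles are mice 1, 2 and 3 of a group, and bars are mean ± SD (n = 3). No pairing of mice across groups by number is stated. In *Socs3* and *Pim2* every JAK inhibitor-treated mouse lies below every vehicle-treated mouse, and vehicle-treated mouse 3 stands highest; in the other members the groups overlap.

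*Socs3* and *Pim2* were the members with the largest differences, both lower with the JAK inhibitor, and neither passed the test once adjusted over all genes. On log2(FPKM + 1), compared between groups with limma, 6 of the 9 tested members had lower and 3 had higher estimates. At an unadjusted p under 0.05, 2 members were lower (of all tested genes, 9.4% were lower) and none was higher (6.57% of all). No member had an adjusted p under 0.05 (Benjamini-Hochberg over all tested genes), a threshold that 15 genes, 0.133% of all, passed. The JAK inhibitor-treated mice lay wholly below the vehicle-treated mice in 2 members (12.1% of all genes) and wholly above them in none (9.92% of all). The median difference over the 9 members was -0.06, beside -0.0035 over all tested genes.

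**Figure D2:**
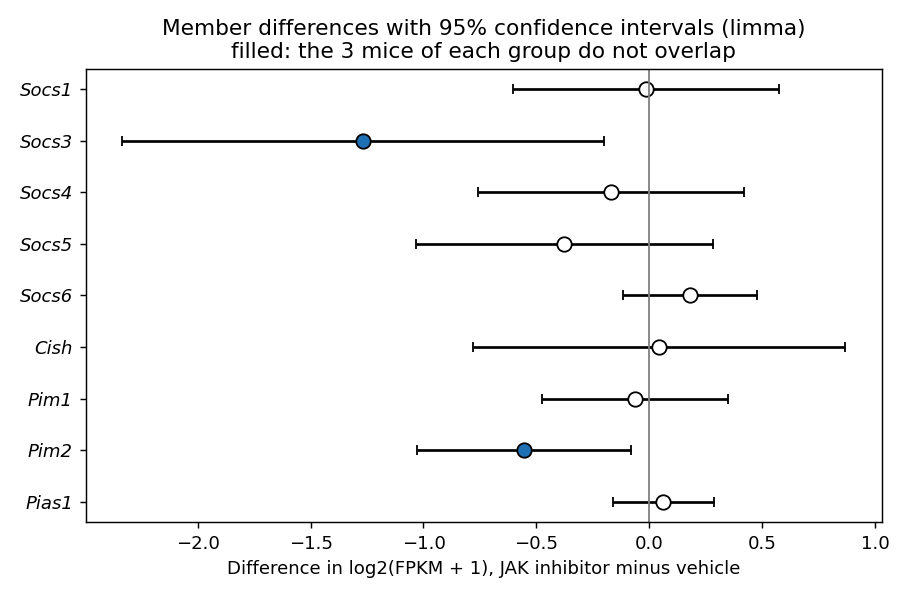
Difference in log2(FPKM + 1), JAK inhibitor minus vehicle (x axis), for the 9 tested members, with 95% confidence intervals from limma. Filled points mark *Socs3* (-1.27) and *Pim2* (-0.56), whose groups did not overlap and whose unadjusted intervals lie below 0; the interval of each other member spans 0.

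*Socs3* encodes the inhibitor that binds gp130, the shared receptor chain of the IL-6 family, together with JAK, and its gene spans chr11:117966079-117970047 on the minus strand (GRCm38, GENCODE M21). The vehicle-treated mice had 19.9, 9.48 and 52.3 FPKM of *Socs3*, and the JAK inhibitor-treated mice had 8.30, 7.74 and 9.28. The groups did not overlap, but the lowest vehicle-treated mouse was close to the highest JAK inhibitor-treated mouse. The means were 27.2 ± 22.3 and 8.44 ± 0.781 FPKM (SD, n = 3 each), a ratio of 0.310. The difference on log2(FPKM + 1) was -1.27 (95% confidence interval -2.34 to -0.20, SE 0.47, limma p = 0.0248, adjusted p = 0.238, exact permutation p = 0.1), and 1178 genes had a smaller limma p. With 3 against 3 mice, no 2-sided permutation p can be below 0.1. In bulk RNA, fewer cells of a type and less RNA per cell cannot be told apart.

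On log2(FPKM + 1), *Socs3* had the widest spread between vehicle-treated mice of any tested member. The SD of log2(FPKM + 1) was 1.18 with vehicle and 0.118 with the JAK inhibitor. The vehicle SD was larger than that of 99.5% of the 3513 tested genes whose mean FPKM was within 2-fold of that of *Socs3*, and vehicle-treated mouse 3 was its highest value. Without that mouse the difference was -0.65 (adjusted p = 0.381, with the unadjusted p still under 0.05), and without vehicle-treated mouse 2 it was -1.83 (adjusted p = 0.0828). The unadjusted p no longer passed when vehicle-treated mouse 1 or any one of the JAK inhibitor-treated mice was left out, or when low genes were not filtered out, with differences from -1.33 to -1.21 and adjusted p-values of 0.345 to 0.489.

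*Pim2*, at chrX:7878262-7883432 on the plus strand, was at 9.15, 8.65 and 15.1 FPKM in vehicle-treated mice and at 7.35, 7.52 and 5.97 in JAK inhibitor-treated mice. Its groups did not overlap, and vehicle-treated mouse 3 was again the highest. The means were 10.97 ± 3.59 and 6.95 ± 0.850 FPKM (SD, n = 3 each), a ratio of 0.633. The difference was -0.56 (95% confidence interval -1.03 to -0.08, SE 0.21, limma p = 0.0260, adjusted p = 0.243, exact permutation p = 0.1). The unadjusted p no longer passed without vehicle-treated mouse 3 (difference -0.32), without JAK inhibitor-treated mouse 1 (-0.60), 2 (-0.61) or 3 (-0.46), or without a filter on low genes (-0.56), with adjusted p-values of 0.406 to 0.503.

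**Figure D3:**
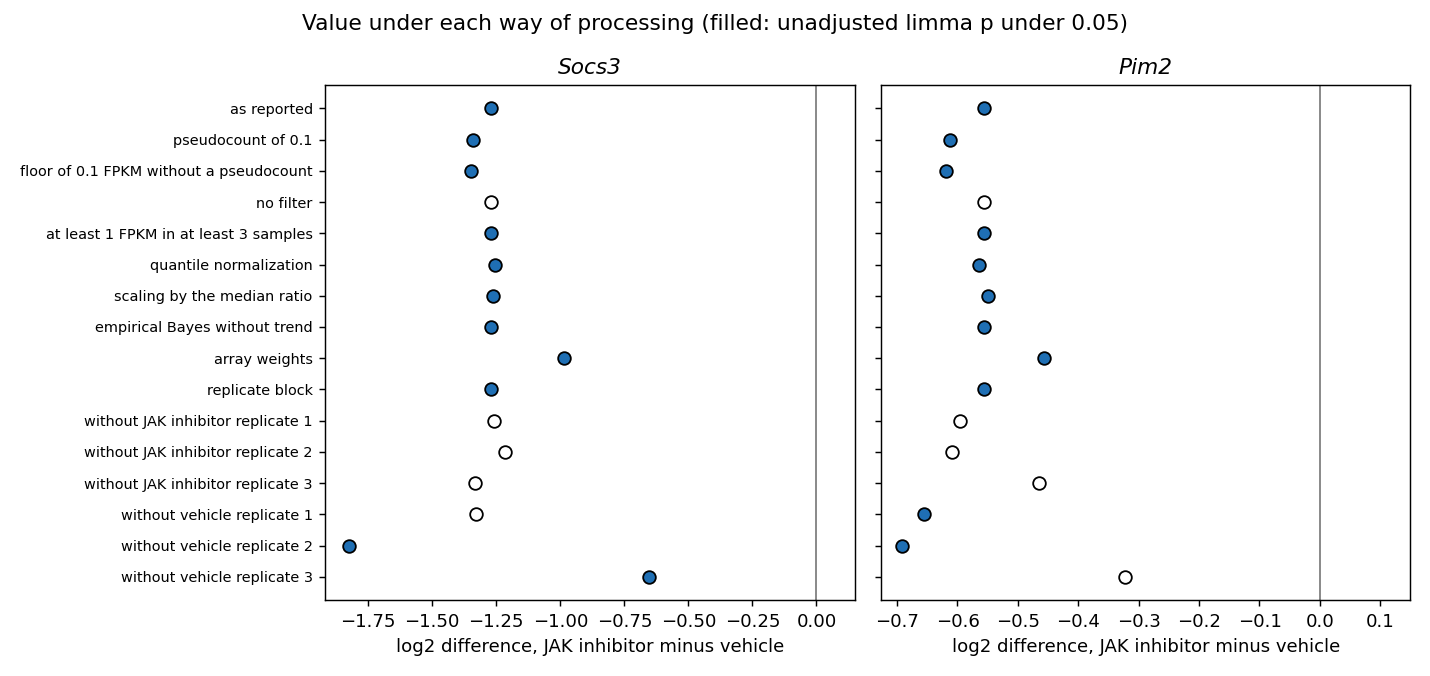
Difference of *Socs3* (left) and *Pim2* (right) in log2 FPKM, JAK inhibitor minus vehicle (x axis), under each of 16 ways of processing (y axis), filled where the unadjusted limma p was under 0.05. *Socs3* ranges from -1.83 to -0.65 and *Pim2* from -0.69 to -0.32, and both stay below 0 in each.

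*Pim1* is the paralog that shares the survival role of *Pim2*. It was at 4.13, 3.65 and 4.46 FPKM with vehicle and at 4.81, 3.15 and 3.74 with the inhibitor, so that the groups overlapped. The difference was -0.06 (95% confidence interval -0.47 to 0.35, limma p = 0.739, exact permutation p = 0.8), an interval that holds the point estimate of neither *Pim2* nor *Socs3*. Whether *Pim1* and *Pim2* differ from each other in their response was not tested. An antisense gene, Gm26885, overlaps *Pim1* (chr17:29490753-29496112), and reads of the pair cannot be told apart if strand was not used in counting.

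The levels of *Socs1*, *Cish* and *Socs2* were low. *Socs1*, which inhibits JAK1 itself and restrains interferon signaling, was at 1.22, 2.76 and 1.79 FPKM with vehicle and at 2.22, 2.19 and 1.19 with the inhibitor. Its groups overlapped, with a difference of -0.02 (95% confidence interval -0.61 to 0.57, limma p = 0.951, exact permutation p = 0.9), and the sign turned without vehicle-treated mouse 2 (0.18) or JAK inhibitor-treated mouse 3 (0.17). *Cish*, a STAT5 target that acts on receptors of the IL-2 and growth hormone type, was at 0.195, 1.55 and 0.033 FPKM with vehicle and at 0.603, 0.773 and 0.212 with the inhibitor. Its highest and lowest mice, both given vehicle, were 47.1-fold apart. The difference of *Cish* was 0.04 (95% confidence interval -0.78 to 0.87, limma p = 0.909, exact permutation p = 0.9), turned below 0 in 5 of 14 alternatives and cannot be called in either direction at these levels. Gm17040 and Gm17041 lie on the opposite strand within *Cish* (chr9:107296026-107302784). *Socs2*, which dampens growth hormone signaling, was listed at 0 in 4 of the 6 mice, at 0.36 FPKM in vehicle-treated mouse 3 and at 0.089 in JAK inhibitor-treated mouse 2.

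Of the remaining SOCS members, *Socs4* and *Socs5* are known in part from work on the EGF receptor and *Socs6* from KIT and FLT3 signaling. *Socs4* was at 6.19, 4.85 and 3.63 FPKM with vehicle and at 6.37, 2.98 and 3.67 with the inhibitor, with a difference of -0.17 (95% confidence interval -0.76 to 0.42, limma p = 0.530, exact permutation p = 0.8). Without JAK inhibitor-treated mouse 2, it was 0.02. *Socs5* was at 0.671, 1.49 and 1.64 FPKM with vehicle and at 0.853, 0.246 and 1.17 with the inhibitor, with a difference of -0.38 (-1.03 to 0.28, limma p = 0.226, exact permutation p = 0.3). *Socs6* was at 14.1, 16.03 and 14.4 FPKM with vehicle and at 15.03, 19.4 and 16.5 with the inhibitor, with a difference of 0.18 (-0.12 to 0.48, limma p = 0.203, exact permutation p = 0.2). The groups overlapped in all 3 genes. For *Socs6*, which had the third smallest p of the tested members, the interval leaves room for a rise of the size of 0.48 on the log2 scale but for no fall beyond 0.12.

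*Pias1* was the steadiest member as well as the most abundant. It was at 40.9, 36.1 and 36.0 FPKM with vehicle and at 40.6, 37.9 and 39.4 with the inhibitor, and its highest and lowest mice were 1.14-fold apart. The groups overlapped, and the difference was 0.06 (95% confidence interval -0.16 to 0.28, limma p = 0.550, exact permutation p = 0.4). This was the narrowest interval of the 9 tested members.

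Other genes of the pathway were read from lists written for this tissue, with the same limma fit. The lists were written with earlier results of these data known, so their counts are a description and not independent support. The p-values given for single genes of these lists are adjusted over all tested genes, and none of them passed 0.05. Each count is to be read beside the shares over all tested genes, here and in the cell type lists. These were 9.4% lower and 6.57% higher at an unadjusted p under 0.05. Groups did not overlap in 12.1% (lower) and 9.92% (higher). Of 11 JAK kinases and STAT factors, 1 was lower and none higher at an unadjusted p under 0.05 (median difference -0.01), and 2 were lower without vehicle-treated mouse 1 or 2. Groups did not overlap in 1 lower gene and in no higher one. The lower gene with all mice was *Stat3*, the transcription factor downstream of gp130, with 69.7, 65.7 and 70.9 FPKM in vehicle-treated and 48.2, 54.2 and 59.6 in JAK inhibitor-treated mice (difference -0.35, SE 0.10, adjusted p = 0.168). Its groups did not overlap, and here vehicle-treated mouse 3 did not stand apart. *Stat6*, the STAT of IL-4 signaling and the most abundant of the list, had a difference of -0.003 (adjusted p = 0.992).

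Among 25 receptors that use JAKs, 23 were tested. At an unadjusted p under 0.05, 4 were lower (9.4% of all tested genes) and 3 higher (6.57% of all), with a median difference of -0.14. The groups did not overlap in 4 lower genes (12.1% of all) and 4 higher genes (9.92% of all). The lower count was 1 without vehicle-treated mouse 3, without JAK inhibitor-treated mouse 2 and without mouse 3 of that group, whereas it was 7 without vehicle-treated mouse 2. *Il6st*, which encodes gp130, the receptor chain that SOCS3 binds, was higher with the inhibitor, at 13.7, 17.2 and 16.3 FPKM against 8.82, 12.5 and 8.62 (difference 0.62, SE 0.17, adjusted p = 0.147). *Ifnar2*, a chain of the type I interferon receptor, was higher by 0.28 (adjusted p = 0.157), and so was *Ifngr1*, the ligand-binding chain for interferon gamma and the most abundant receptor, by 0.25 (adjusted p = 0.222). *Csf2rb*, the common beta chain for GM-CSF, IL-3 and IL-5, was lower, at 40.5, 45.4 and 43.5 FPKM against 62.0, 54.5 and 90.3 (difference -0.63, SE 0.17, adjusted p = 0.147). All 4 of these had groups that did not overlap. *Csf2rb* has a near-identical neighbour, *Csf2rb2*, and how reads were split between them is uncertain. The IL-6-type receptor gene *Osmr* was listed at 0 in every mouse.

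Of 17 ligands of such receptors, 7 were tested, of which 1 was lower and 2 were higher at an unadjusted p under 0.05 (median 0.04); 1 was higher without each of the mice other than vehicle-treated mouse 2. Groups did not overlap in 2 lower genes and 1 higher gene. *Il4* was at 3.13, 5.54 and 5.42 FPKM with vehicle and at 2.41, 1.38 and 1.51 with the inhibitor (difference -1.03, adjusted p = 0.117). *Il15* was at 7.62, 8.09 and 3.21 FPKM with vehicle and at 13.6, 12.5 and 10.9 with the inhibitor (difference 0.94, adjusted p = 0.163). The groups did not overlap for either. *Il12a*, the most abundant ligand, had a difference of 0.43 (adjusted p = 0.311) with overlapping groups. *Ifng*, *Ifnb1* and 4 other ligands were listed at 0 in all mice, and protein made by other cells was not measured.

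Of 15 other restraints on the pathway, 14 were tested, of which 1 was lower and 1 higher at an unadjusted p under 0.05 (median -0.06), and the groups did not overlap in 3 lower genes and 1 higher gene. The phosphatase gene *Ptpn1*, whose product acts on JAK2 and TYK2, was lower (difference -0.34, adjusted p = 0.196), and *Ptprc*, which encodes the phosphatase CD45, was higher (difference 0.32, adjusted p = 0.159), both with groups that did not overlap. The lower count was 0 without JAK inhibitor-treated mouse 2 or vehicle-treated mouse 1, and both counts were 2 without vehicle-treated mouse 3. The abundant phosphatase gene *Ptpn6*, which encodes SHP-1, had a difference of -0.15 (adjusted p = 0.461). Of the 8 genes for the ubiquitin ligase that SOCS boxes recruit, none passed an unadjusted p of 0.05 in either direction or kept the groups apart (median 0.02), although 1 was lower without JAK inhibitor-treated mouse 1, and *Tceb2*, which encodes elongin B and is the most abundant of them, had a difference of -0.17 (adjusted p = 0.407).

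Among other genes known to respond to STATs, in a list written with earlier results of these data known, more were lower than higher. Of 20 such genes, 9 were lower and 3 higher at an unadjusted p under 0.05 (9.4% and 6.57% of all tested genes), with a median difference of -0.26 beside -0.0035 over all tested genes, and none had an adjusted p under 0.05. The groups did not overlap in 8 of the lower genes (12.1% of all tested genes) and 2 of the higher genes (9.92% of all). Without vehicle-treated mouse 3 the counts were 7 lower and 3 higher, and over the other alternatives 7 to 9 were lower and 1 to 3 higher, with 1 higher without JAK inhibitor-treated mouse 1. *Id2*, which encodes an inhibitor of basic helix-loop-helix factors, was at 358.7, 251.5 and 718.7 FPKM with vehicle and at 168.9, 130.3 and 176.3 with the inhibitor (difference -1.35, SE 0.32, adjusted p = 0.117). *Fos*, a component of AP-1 that osteoclast formation requires, was at 95.4, 142.5 and 155.9 FPKM with vehicle and at 41.2, 86.0 and 63.2 with the inhibitor (difference -1.07, SE 0.26, adjusted p = 0.122). *Bcl3*, an atypical I-kappa-B protein and STAT3 target, was at 48.1, 46.9 and 70.7 FPKM with vehicle and at 32.5, 21.6 and 37.4 with the inhibitor (difference -0.84, adjusted p = 0.133). *Ccnd2*, which encodes cyclin D2, differed by -0.58 (adjusted p = 0.121), and *Cebpb*, the most abundant of the list and a factor of monocytes and granulocytes, by -0.40 (adjusted p = 0.219). The groups did not overlap in any of these 5 genes. The 3 higher genes were *Bcl6* (difference 0.70, adjusted p = 0.187), *Irf8* (0.64, adjusted p = 0.169) and *Gadd45g* (0.54, adjusted p = 0.290). Groups did not overlap in *Bcl6* and *Irf8* but overlapped in *Gadd45g*.

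**Figure D4:**
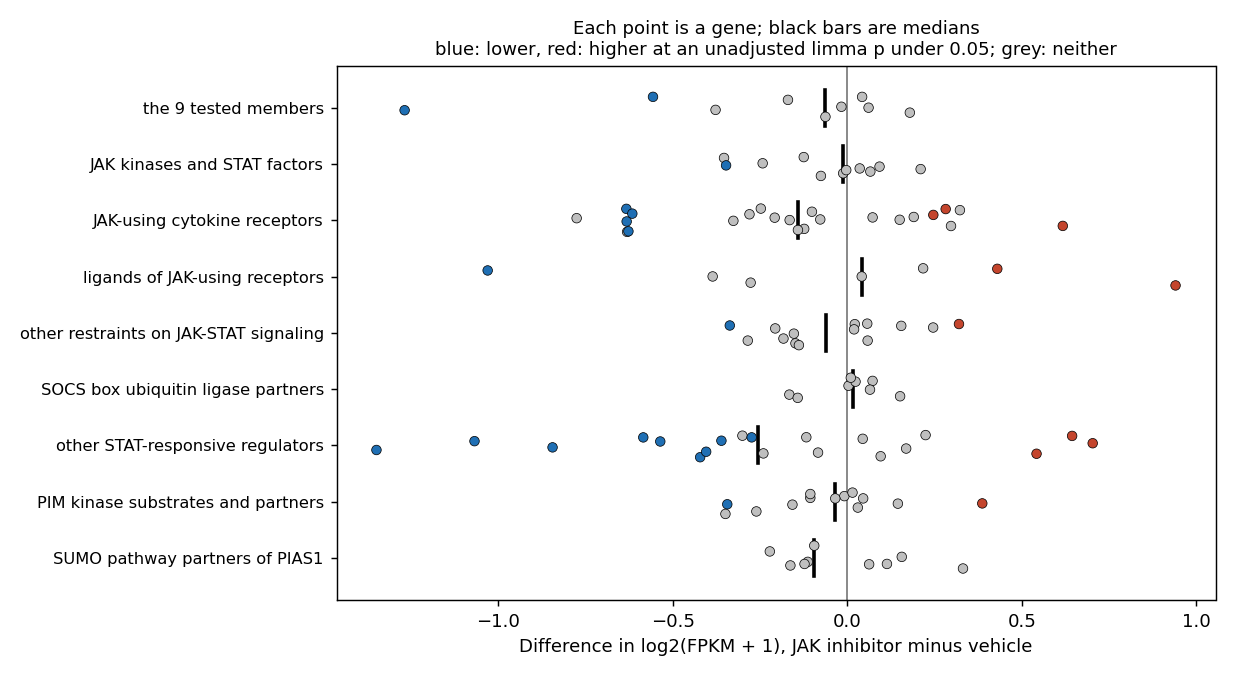
Difference in log2(FPKM + 1), JAK inhibitor minus vehicle (x axis), for the 9 tested members and the tested genes of 8 pathway lists (y axis). Each point is a gene, blue or red where lower or higher at an unadjusted limma p under 0.05, and black bars are medians; the list of other STAT-responsive regulators has 9 blue and 3 red points and a median of -0.26, and the members have 2 blue points and a median of -0.06.

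Of 13 tested substrates and partners of PIM kinases, 1 was lower and 1 higher at an unadjusted p under 0.05 (median -0.03), and the higher count was 0 without JAK inhibitor-treated mouse 1 or vehicle-treated mouse 2 or 3. In this list, 4 lower genes and 1 higher gene had groups that did not overlap. *Bad*, a pro-death BCL2 relative that PIM kinases phosphorylate, was at 88.4, 94.1 and 109.6 FPKM with vehicle and at 80.2, 74.4 and 74.1 with the inhibitor (difference -0.34, adjusted p = 0.169). *Cbx3*, a heterochromatin protein gene, had a difference of 0.39 (adjusted p = 0.207), and the chaperone gene *Hsp90ab1* of -0.03 (adjusted p = 0.888). Of 9 SUMO pathway genes none passed an unadjusted p of 0.05 (median -0.09), although 1 was higher without JAK inhibitor-treated mouse 1 and 1 lower without mouse 2 of that group. The groups did not overlap in 2 lower genes of this list and in no higher one, and *Sumo2*, the most abundant, had a difference of 0.16 (adjusted p = 0.465).

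The summed levels of mature osteoclast genes and of mature neutrophil genes both followed the order of *Socs3* and *Pim2* among vehicle-treated mice. The summed FPKM of 8 mature osteoclast genes was 286.5, 175.1 and 644.0 in vehicle-treated mice 1 to 3 and 116.7 to 124.1 in JAK inhibitor-treated mice. Most of this was *Acp5*, and without it the sums were 54.1 to 260.6 and 17.0 to 33.4 FPKM. The order of the vehicle-treated mice in the osteoclast sum, with mouse 3 highest and mouse 2 lowest, was also their order in *Socs3*, *Pim2* and *Id2*. The mature neutrophil sum had the same order, so the order is not particular to osteoclast genes. Of the 7 osteoclast genes that were tested, 6 were lower at an unadjusted p under 0.05 (9.4% of all tested genes) and 5 without vehicle-treated mouse 3. *Calcr*, the calcitonin receptor gene of mature osteoclasts, was listed at 0 in every mouse. The part of these markers in the *Socs3* and *Pim2* differences was not tested.

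Neutrophil genes also differed between mice. The sum of 9 mature neutrophil genes was 10024 to 21005 FPKM with vehicle, highest in mouse 3, and 6545 to 13363 with the inhibitor. Most of this was *S100a8*, and without it the sums were 2059 to 5536 and 1574 to 3543 FPKM. Of the 8 tested, 4 were lower at an unadjusted p under 0.05 (3 without vehicle-treated mouse 3 and 2 without JAK inhibitor-treated mouse 3). *Il1r2*, a decoy receptor gene of that list, was at 846.4 FPKM in vehicle-treated mouse 3 and at 4.96 to 58.4 in the other 5 mice. Not every gene of the list was highest in that mouse. *Retnlg* was at 74.1, 29.8 and 13.2 FPKM in vehicle-treated mice 1 to 3, and *Csf3r* at 51.3, 51.9 and 44.1. The groups of *Csf3r* did not overlap, and it was higher with the inhibitor. The sum of 8 neutrophil progenitor genes was 5222 to 9922 FPKM with vehicle, lowest in mouse 3, and 13348 to 14000 with the inhibitor, and 5 of 8 were higher (4 without vehicle-treated mouse 3 and 3 without JAK inhibitor-treated mouse 1). The groups of *Ctsg*, *Ltf* and *Ngp* in this list overlapped. *Cxcr1* was listed at 0 throughout. Which cells the RNA of the listed genes came from was not measured. The part of these genes in the members' differences was not tested.

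Genes of the labelled cells, the monocyte lineage, were present in every mouse. The monocyte and macrophage genes summed to 28743 to 38094 FPKM with vehicle and 29403 to 38794 with the inhibitor, lowest in vehicle-treated mouse 3. Most of this was *Lyz2*, which neutrophils also express, and without it the sums were 4158 to 5976 and 5504 to 5904 FPKM. *Cx3cr1* itself was at 30.1, 31.5 and 15.5 FPKM with vehicle and at 30.1, 29.5 and 36.1 with the inhibitor. Of the 11 genes of this list 2 were lower and 1 higher at an unadjusted p under 0.05, with 1 lower without vehicle-treated mouse 3 or without JAK inhibitor-treated mouse 1 or 3. The other sums, vehicle first, were 6.63 to 10.6 and 5.54 to 9.68 FPKM for T cells, 27.5 to 31.9 and 28.8 to 35.7 for B cells, 37.2 to 55.0 and 35.5 to 47.5 for dendritic cells, and 4.54 to 7.85 and 6.91 to 8.78 for osteoblasts and stroma. In NK cell genes they were 206.5 to 374.5 and 491.1 to 571.6 FPKM, nearly all of it *Nkg7*, and without that gene 11.4 to 39.9 and 1.73 to 14.5. Of 6 tested NK cell genes, 2 were lower and 1, *Nkg7*, was higher at an unadjusted p under 0.05, with a median difference of -0.39; the lower count was 1 without vehicle-treated mouse 1 or 3 or JAK inhibitor-treated mouse 2 or 3. In erythroid genes the sums were 0.743 to 3.88 and 6.73 to 54.0. The B cell genes *Ms4a1*, *Pax5* and *Ebf1* were at 0 in all mice. Nearly all of the B cell sum was *Cd79b*, and without it the sums were 0.15 to 0.806 and 0.331 to 0.849 FPKM. Most of the osteoblast and stroma sum was *Runx2*, and without it the sums were 0.923 to 1.56 and 1.43 to 2.98 FPKM.

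**Figure D5:**
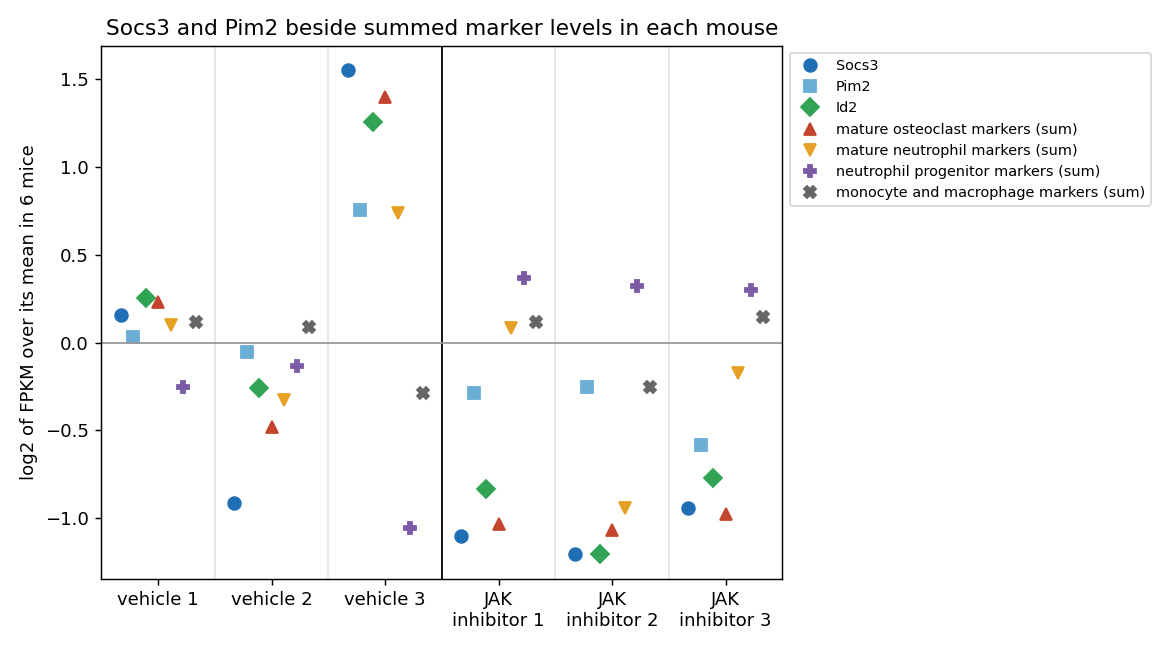
Level of *Socs3*, *Pim2*, *Id2* and 4 summed marker lists in each mouse (x axis), as log2 of FPKM over the mean of the 6 mice (y axis); points are set side by side within a mouse. In vehicle-treated mouse 3, *Socs3*, *Pim2*, *Id2* and the osteoclast and mature neutrophil sums are at their highest and the neutrophil progenitor and the monocyte and macrophage sums are at their lowest.

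Over the 6 mice, many genes shared the pattern of *Socs3*. Among 10480 tested genes with a mean FPKM of at least 1, those with the highest Pearson correlation to it on log2(FPKM + 1) were *Fbxl5* (0.999), *Klf9* (0.998) and *Fcgr2b* (0.994), and 128 genes exceeded 0.95. *Fcgr2b*, an inhibitory Fc receptor gene, was at 201.0, 154.8 and 326.4 FPKM with vehicle and at 149.3, 132.7 and 150.8 with the inhibitor. For *Pim2* the closest were *Il18rap*, *Mfsd7b* and *Ccdc86* (each 0.996), with 120 genes above 0.95. *Il18rap*, an IL-18 receptor chain gene, was at 5.93, 5.82 and 14.9 FPKM with vehicle and at 3.74, 4.28 and 2.90 with the inhibitor. For *Socs6* they were *Myo18a* (0.992), *Ing5* (0.988) and *Fam73a* (0.985), with 27 genes above 0.95. These correlations describe 6 libraries in which a single mouse can set the value, and they carry no test.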

How the data were processed

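RNA-Seq of 3 JAK inhibitor-treated and 3 vehicle-treated mice was read from the tables the authors deposited, 1 per mouse, whose values are FPKM per gene symbol. Per the labels' processing notes, TopHat2 2.0.13, Bowtie2 2.2.3, SAMtools 0.1.19 and Cufflinks 2.2.1 and the build mm10 were used, in roles not stated. The labels name a SMART-Seq HT and Nextera library, and the methods a TruSeq Stranded mRNA kit. Whether counting used strand is not given in the sources used here. FPKM summed to 688372 to 775790 per mouse. Depth is unknown, since low values showed no steps of whole reads (at most 5.58% fell in 1 bin), so no counting intervals are given.

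The 11301 genes that reached 1 FPKM in any mouse were compared on log2(FPKM + 1) with limma 3.58.1 in R 4.3.3 (empirical Bayes with trend, 2-sided, Benjamini-Hochberg over all tested genes), which understates changes of low genes. Exact 2-sided permutation tests of 3 against 3 cannot give a p below 0.1. The limma p-values weigh the difference between groups against the spread between mice within groups, which the fit adjusts toward a trend over all tested genes. The fit was tested on simulated data. Alternatives were a pseudocount of 0.1, a floor of 0.1 FPKM, no filter, a filter in 3 mice, quantile and median-ratio scaling, no trend, array weights, a replicate block and each mouse left out. Counts for the lists under these settings were added after seeing the data.

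The members and lists were chosen with earlier results of these data known. The genes named are all members, up to 4 genes per pathway list with the smallest p among those with an unadjusted p under 0.05 and groups that do not overlap, the most abundant gene of each, and the 3 genes most correlated with each of the 3 members with the smallest p. Genes named outside this rule, among them *Il1r2*, *Cx3cr1*, *Osmr*, *Bcl6*, *Irf8* and *Gadd45g*, were chosen after their values were seen or mark a cell type. Positions are from GENCODE M21, in which 95.7% of symbols were found, and promoter sequences from RefSeq (GRCm38.p6). Python 3.11.15, pandas 2.3.3, NumPy 2.4.6 and matplotlib 3.10.9 were used.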

Additional observations from a re-analysis of the deposited data

How the results depend on the processing

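The differences of *Socs3* and *Pim2* kept their direction under all 15 alternatives, but not their side of an unadjusted p of 0.05. Without a filter, *Socs3* was at -1.27 and *Pim2* at -0.56, and 0 members passed. With each mouse left out in turn, *Socs3* ranged from -1.83 to -0.65, *Pim2* from -0.69 to -0.32 and the number of members that were lower from 0 to 2, with 0 without any one of the JAK inhibitor-treated mice and 1 without vehicle-treated mouse 1 or 3. The adjusted p ranged from 0.0828 to 0.489 for *Socs3* and from 0.204 to 0.503 for *Pim2*. The cause was not tested. Among members, 4 near 0 changed sign: *Cish* with array weights (-0.058) and between -0.21 and 0.44 over mice left out, *Pim1* between -0.19 and 0.050, *Socs1* between -0.20 and 0.18, and *Socs4* between -0.43 and 0.02. With a floor of 0.1 FPKM in place of the pseudocount, *Cish* was at 0.57.

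The number of genes past an adjusted p of 0.05 moved more: 15 as reported, 23 with the floor, 2 without a filter, 34 with at least 1 FPKM in 3 mice, 2 without the trend, 63 with array weights and 1 to 25 with mice left out, the least without JAK inhibitor-treated mouse 2 and the most without vehicle-treated mouse 3. With the replicate number as a block it was 67. Same-numbered mice of the 2 groups did not deviate together (correlations 0.016, 0.054 and -0.00016 over 11301 genes). Not every mouse correlated best with its own number. Deviations from means of 3 mice cannot show whether mice were handled in pairs. The sources used here state no pairing. Under that block *Socs3* had an adjusted p = 0.150 and *Pim2* an adjusted p = 0.273, and no member had one under 0.05. The median over the members ran from -0.21 to -0.05. *Cish* was not tested where 1 FPKM was required in 3 mice. Depth is unknown, and for the members under 2 FPKM (*Socs1*, *Socs5*, *Cish* and *Socs2*) a miss of the threshold does not show that the groups did not differ.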
